A study of Homo sapiens with 3 samples.

Results

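The 6 genes that encode the main HSP90, HSP70 and HSP60 chaperones were examined for regions bound by YBX1 in T24, a long-established cell line from a human bladder carcinoma. Their members in the data are the deposited YBX1 peaks that overlap, by at least 1 base, the hg19 spans of HSP90AA1, HSP90AB1, HSP90B1, HSPA8, HSPA5 and HSPD1. There were 8 such peaks of 17802 in the whole list (0.0449%). The study has 3 groups of 1 sample each, all from T24 cells that overexpress Flag-tagged YBX1: RNA of the lysate kept as input, RNA captured with anti-Flag beads and trimmed with micrococcal nuclease, and captured RNA treated with bisulfite to read 5-methylcytosine (m5C). The source label of the bisulfite sample names a T25 line, whereas its characteristics give T24, which was followed. The overexpressed, tagged protein limits the sample as a model of YBX1 at its normal level, and no capture from cells without the tag is among the samples used here. Whether a peak over an abundant mRNA comes from binding or from background capture cannot be told apart.

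The processed data give only the chromosome, start and end of each peak. They hold no height, strand, read count or m5C call, so the depth behind a peak is unknown. With no replicate, there is no spread between cultures and no test between genes or conditions, and all values below describe 1 list of peaks. The list gives no expression level either, so the identity of the cells was not checked against marker genes.

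Chaperones hold other proteins in a state from which they can fold, using cycles of ATP binding and hydrolysis. HSP90 proteins act as dimers on partly folded clients such as kinases and steroid receptors, HSP70 proteins bind short hydrophobic stretches of unfolded chains, and HSP60 forms a closed chamber. HSP90AA1 (the stress-inducible form), HSP90AB1 (the constitutive form) and HSPA8 (the constitutive HSP70, HSC70) work in the cytosol and nucleus. HSP90B1 (GRP94) and HSPA5 (BiP) work in the endoplasmic reticulum, and HSPD1 (HSP60) in the mitochondrial matrix. YBX1 is a cold-shock-domain protein that packages mRNA and has been described as a reader of m5C.

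The genes are usually assigned to 2 stress programmes. Their promoters were searched for the letters of the control elements of each programme, a search that does not use the peaks. Cytosolic and mitochondrial chaperone genes are switched on by heat shock factor through heat shock elements, repeats of GAA in alternating directions. Genes of the endoplasmic reticulum chaperones are switched on in the unfolded protein response through the endoplasmic reticulum stress element. In the 250 bases before each start listed by RefSeq (GRCh38.p14), all 6 genes matched by symbol, and both strands were searched for each element. The heat shock element was taken as GAA, TTC and GAA, 2 bases apart, and the endoplasmic reticulum stress element as CCAAT and CCACG, 9 bases apart, with every other base free. The first motif was present in 0.441% and the second in 0.0740% of 35116 windows. The match nearest to a listed start is given for each gene, 5′ to 3′ on the strand of the gene, with the matched letters in capitals.
HSP90AA1, chr14:102087111-102087140, minus strand: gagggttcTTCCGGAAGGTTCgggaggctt
HSP90AB1, chr6:44247823-44247852, plus strand: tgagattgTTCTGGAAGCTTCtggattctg
HSPA8, chr11:123062170-123062199, minus strand: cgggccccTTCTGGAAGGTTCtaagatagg
HSPD1, chr2:197500059-197500088, minus strand: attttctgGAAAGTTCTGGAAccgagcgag
HSP90B1, chr12:103930316-103930345, plus strand: gggtgCGTGGTGCGGCGCGATTGGtgggtt
HSPA5, chr9:125241385-125241414, minus strand: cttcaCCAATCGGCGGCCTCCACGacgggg
The first 4 lines hold the heat shock element, and the last 2 the endoplasmic reticulum stress element. A heat shock element lay before 1 of the 2 listed starts of HSP90AA1, 1 of 3 of HSP90AB1, 1 of 2 of HSPD1 and the single one of HSPA8. Each of the 6 matches shown was measured to the listed start it precedes. It ended 75 bases before that start in HSP90AA1, 99 in HSP90AB1, 42 in HSPA8, 227 in HSPD1, 70 in HSP90B1 and 47 in HSPA5. No heat shock element of this form was found before a listed start of HSP90B1 or HSPA5, and no endoplasmic reticulum stress element before one of the other 4 genes. These coordinates are on GRCh38.p14 and are not comparable with the hg19 positions of the peaks. Which listed start matches the start of an hg19 span was not established, so a match need not lie before the span. A match is a run of letters and was not tested as a working site.

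Among these 6 genes, YBX1 peaks lay over all 3 of cytosolic chaperones and over none of the other 3. Other chaperone genes were not placed, and the 6 were chosen with earlier results of these data known. HSP90AB1 carried 5 peaks, HSPA8 carried 2 and HSP90AA1 carried 1, whereas HSP90B1, HSPA5 and HSPD1 carried 0. Peaks covered 39.5% of the HSP90AB1 span, 22.1% of that of HSPA8 and 8.10% of that of HSP90AA1. Over the 6 spans together, 4211 of 55223 bases (7.63%) were under a peak. Of the 4 genes with a heat shock element, 3 carried peaks, and of the 2 with an endoplasmic reticulum stress element, 0 did. The HSP90 and HSP70 families each had a member with peaks and a member without. With 6 genes and 1 list, no difference between compartments, promoter types or families was tested.

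**Figure D1:**
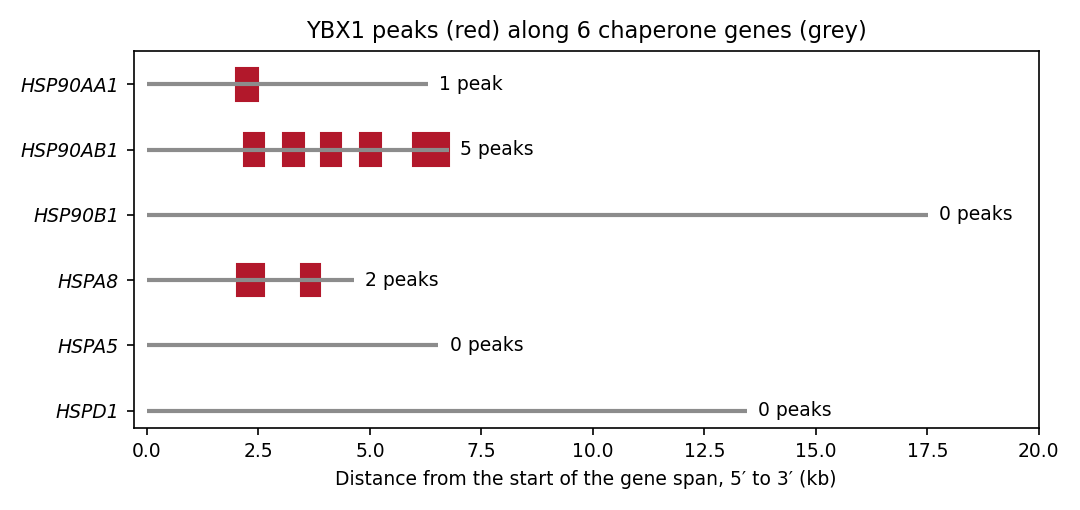
Each grey line is the hg19 span of a gene, drawn 5′ to 3′ from its start (horizontal axis, kb), and each red block is a YBX1 peak to scale. HSP90AB1 shows 5 blocks, HSPA8 shows 2 and HSP90AA1 shows 1, none in the first part of the span, and the lines of HSP90B1, HSPA5 and HSPD1 carry none.

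These counts were read against the rest of each chromosome, cut into consecutive windows as long as the gene span, up to its last peak. At least 1 peak was present in 2.56% of windows for HSP90AA1, 2.61% for HSP90AB1 and 2.63% for HSPA8. For the genes without a peak the shares were 6.02% (HSP90B1), 2.87% (HSPA5) and 3.42% (HSPD1), so that an empty window of these lengths was the usual case. Windows with at least 5 peaks made up 0.0756% (19 of 25140) for the length of HSP90AB1 on chromosome 6. Windows with at least 2 peaks made up 0.727% (210 of 28873) for that of HSPA8 on chromosome 11. Among windows that have a peak within 100 kb on either side, these shares were 0.360% and 3.02%. Neither kind of window was chosen for holding an expressed gene, and shares among expressed genes were not analysed here. Among windows with any peak, 2.89% held at least as many as HSP90AB1 and 27.6% at least as many as HSPA8.

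HSP90AB1, the constitutive cytosolic HSP90, had the most peaks and the largest share under peaks of the 6 genes. Counting only peaks of at least 500 bp ended this order, with 1 peak in each of HSP90AB1, HSPA8 and HSP90AA1 and a smaller share in HSP90AB1 (11.9%) than in HSPA8 (13.2%). Its span is 6767 bp on the plus strand of chromosome 6, from 44214848 to 44221614. In the direction of transcription its peaks lay at 44217018 to 44217475 (457 bp wide), 44217891 to 44218379 (488 bp), 44218743 to 44219190 (447 bp), 44219618 to 44220088 (470 bp) and 44220808 to 44221616 (808 bp). Widths in the whole list begin at 400 bp, with a median of 470 bp, so many peaks lie near these values. The first 4 peaks of HSP90AB1 were of nearly equal width and the last was the widest. They were separated by 416, 364, 428 and 720 bp. The first 2.17 kb of the span held no peak, while the last peak reached 2 bases past the span's end. Divided into 5 equal parts from 5′ to 3′, the span was covered over 0%, 33.8%, 48.3%, 55.7% and 59.6%, so coverage was larger in each part than in the one before.

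The 5 peaks of HSP90AB1 formed a short run for a group of this size. They all lie over a gene span of 6767 bp, so their run had to be shorter than the median given next. A short run, and in part its high share under peaks, therefore follows from the length of the gene. Peaks joined when 5 kb or less apart gave 169 runs of exactly 5 peaks in the list. That over HSP90AB1 was 4.60 kb long, against a median of 9.85 kb, and 2 of the 169 runs, this one included, were as short or shorter. Peaks covered 58.1% of it, against a median of 31.4%, a share that 17 of the 169 runs reached. The run also stood far from other peaks, with 94.2 kb to the nearest one, against a median of 7.03 kb for runs of 5 peaks. Of 168 such runs with a neighbour on both sides, 9 stood at least as far apart. This was not particular to HSP90AB1. The run of 2 peaks over HSPA8 stood 248 kb from the nearest other peak, against a median of 11.0 kb. Of 1504 runs of 2 peaks, 81 stood at least as far apart. The single peak of HSP90AA1 stood 28.0 kb away, against a median of 17.7 kb, and 2096 of 5674 single peaks did so. The list does not place exons, so close packing of exons and of binding cannot be told apart.

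**Figure D2:**
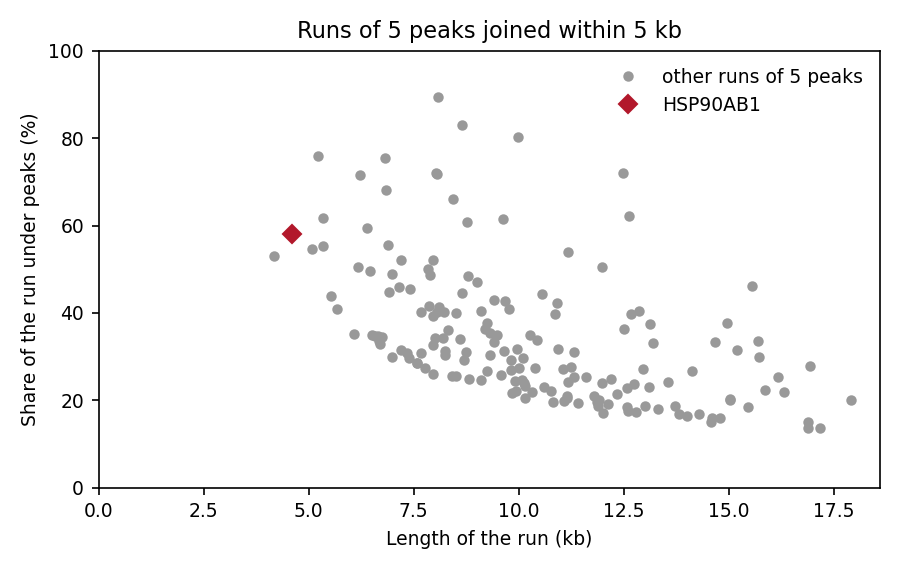
Each point is 1 of the 169 runs of 5 peaks in the list, with the length of the run in kb (horizontal axis) and the share of it under peaks in percent (vertical axis). The red diamond, HSP90AB1, lies at the short end at 4.60 kb and 58.1%.

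HSP90AA1, the stress-inducible cytosolic HSP90, carried a single peak. It lay on chromosome 14 from 102550874 to 102551383 and was 509 bp wide, in a span on the minus strand from 102547075 to 102553371. The peak began 1.99 kb from the start of the span and its middle lay at 35.6% of the span's length, in the second of the 5 parts, which was covered over 40.5%. The other 4 parts held no peak. The span of 6297 bp is nearly as long as that of HSP90AB1, yet it held 1 peak and 8.10% covered bases where HSP90AB1 held 5 and 39.5%. RefSeq gives this gene 59008 bp on GRCh38.p14, since some transcripts start far upstream of the span used here. The nearest upstream peak was 290 kb away, so a longer span would not have added a peak.

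HSPA8, the constitutive cytosolic HSP70, which also strips clathrin from coated vesicles, carried 2 peaks in a span of 4645 bp on the minus strand of chromosome 11 (122928200 to 122932844). The peak nearer the start lay at 122930219 to 122930829 and was 610 bp wide, in the middle of the span (49.9% of its length). The other lay at 122928969 to 122929385 and was 416 bp wide, at 78.9%. They were 834 bp apart, and the last 769 bp of the span were free of peaks. From 5′ to 3′, the 5 parts of the span were covered over 0%, 0%, 65.8%, 27.7% and 17.2%. In HSP90AB1, by contrast, the last part was the most covered. RefSeq lists 3 small nucleolar RNAs (SNORD14C, SNORD14D and SNORD14E) inside HSPA8 on GRCh38.p14, and whether a peak lies over one of them was not analysed here.

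In all 3 genes with peaks, the first peak began between 1.99 and 2.17 kb from the start of the span. It began at 1.99 kb in HSP90AA1, 2.17 kb in HSP90AB1 and 2.02 kb in HSPA8. The first of the 5 equal parts of each span was free of peaks. The middle of the first peak lay at 35.6%, 35.4% and 49.9% of these spans, so the agreement was in distance more than in relative position for HSPA8. The distances depend on the start used for each span. RefSeq lists 2 starts for HSP90AA1 and 3 for HSP90AB1. Its gene lengths on GRCh38.p14 are 59008 bp (HSP90AA1), 7690 bp (HSP90AB1) and 4974 bp (HSPA8), against spans of 6297, 6767 and 4645 bp. These are 3 genes, and the likeness was seen after their positions were known.

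The 8 peaks were of ordinary width for the list. Their median was 479 bp, from 416 to 808 bp, against a median of 470 bp and quartiles of 424 and 631 bp for all peaks. Of the 8, 3 (37.5%) were at least 500 bp wide, against 40.8% of all peaks, with 1 in each of the genes that carried any. None reached 1000 bp, a width that 9.80% of all peaks had. The last peak of HSP90AB1 was wider than 84.4% of the list, the first peak of HSPA8 wider than 73.5% and the peak of HSP90AA1 wider than 61.2%. The second peak of HSPA8 was the narrowest of the 8, wider than 18.8% of the list.

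**Figure D3:**
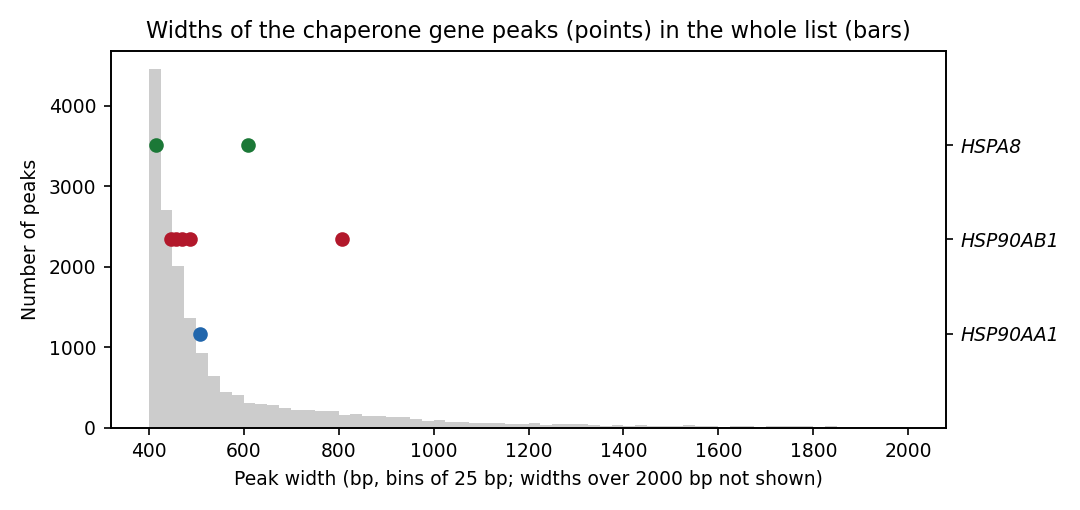
Grey bars count all peaks of the list by width (left axis, bins of 25 bp up to 2000 bp), and points show the width of each peak over HSP90AA1, HSP90AB1 and HSPA8 on separate rows. The 8 points lie between 416 and 808 bp, with 5 of them under 500 bp.

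HSP90B1, HSPA5 and HSPD1 held no peak in spans of 17.5, 6.54 and 13.5 kb, and 2 of these are the longest of the 6. HSP90B1, the HSP90 of the endoplasmic reticulum, lies on chromosome 12 from 104324189 to 104341703, in a stretch of 225 kb without a peak. Of the 1012 gaps between peaks on that chromosome, 8.60% were as long or longer. HSPA5, the HSP70 of the endoplasmic reticulum and a binding partner of the sensors of the unfolded protein response, lies on chromosome 9 from 127997132 to 128003666, in a gap of 338 kb (8.92% of 863 gaps were as long). HSPD1, the mitochondrial chaperonin, lies on chromosome 2 from 198351308 to 198364771, in a gap of 2350 kb (33 of 975 gaps, or 3.38%, were as long). Whether the list used here is complete over this gap is not known, so the 0 of HSPD1 is less certain than the others wherever it is counted. A long gap is more likely to hold any given place than a short one, so these shares describe the surroundings and are not tests. No peak in the list used here does not show that YBX1 is absent from these mRNAs, because the depth and the threshold of the peak call are unknown.

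Peaks did not run on into the flanks of any of the 6 genes. Within 10 kb outside the spans there were 0 peaks, apart from the 2 bases by which the last HSP90AB1 peak passed its span. Upstream, the nearest outside peak was 20.3 kb from HSPA5, 89.2 kb from HSP90B1, 92.0 kb from HSP90AB1, 290 kb from HSP90AA1, 1849 kb from HSPD1 and 2601 kb from HSPA8. Downstream, it was 24.2 kb from HSP90AA1, 118 kb from HSP90B1, 247 kb from HSPA8, 311 kb from HSPA5, 488 kb from HSPD1 and 1168 kb from HSP90AB1. Whether the list is complete over the longest of these stretches is not known, as for the gap over HSPD1. In the list as it stands, the 8 peaks stood over these genes and not at the edge of a longer run.

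**Figure D4:**
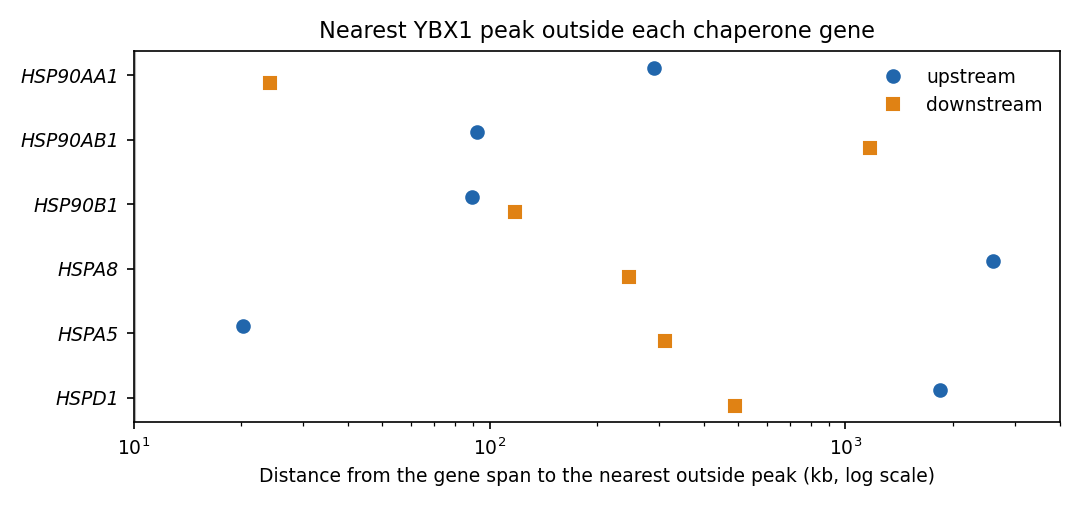
For each gene, the horizontal axis gives the distance in kb, on a log scale that begins at 10 kb, from the gene span to the nearest peak outside it, upstream (circles) and downstream (squares) in the direction of transcription. All distances are over 20 kb, from 20.3 kb upstream of HSPA5 to 2601 kb upstream of HSPA8.

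Several of these genes have processed copies elsewhere in the genome, which can share reads with them. The RefSeq table names 22 pseudogenes after HSPD1, 20 after HSPA8, 6 in the HSP90AB series, 5 in the HSP90AA series, 2 in the HSP90B series and 1 after HSPA5. HSPA8 had 2 peaks and HSPD1 had 0, a count that is less certain because the list may not be complete there. HSP90AB1 and HSP90AA1, themselves close paralogs, had 5 and 1. The sources used here do not say how reads that fit several places were treated, so the peaks of these genes are uncertain in this respect and its part in the result was not tested.

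YBX1 takes its name from the Y-box, a promoter element that contains the CCAAT box in inverted form, so the same promoter windows were searched for CCAAT on both strands. Of all windows, 32.0% held it. HSP90B1 had 5 matches, HSPA5 had 4, HSPA8 had 2 and HSP90AA1 had 1 (before 1 of its 2 listed starts), and matches in HSP90B1 and HSPA5 include those inside their endoplasmic reticulum stress elements. HSP90AB1, with the most peaks on its RNA, had 0 before its 3 listed starts, and HSPD1 had 0 before its 2. The peaks come from captured RNA and say nothing of binding to promoter DNA.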

How the data were processed

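Per the labels' protocols, T24 cells overexpressing Flag-YBX1 were lysed, YBX1 was captured on anti-Flag beads, and bound RNA was trimmed with micrococcal nuclease, cleared of rRNA and read from both ends. The submitters' processing notes name Trimmomatic, MACS2 and hg19. The aligner, threshold, filters and use of the input were not given in the sources used here. Deposited values are genome positions, per the file headers. Whether they count from 0 or 1 is not stated, so positions stand as in the list, and width means end minus start.

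Peaks were assigned to the 6 gene spans (hg19) by 1 base of overlap. Strand, gene length and promoter sequences came from RefSeq tables on GRCh38.p14, matched by symbol, and no coordinates were converted. All 6 genes were named, with every peak over them. The members and lists were chosen with earlier results of these data known. Other chaperone genes, exons and peak sequences were not placed, because no hg19 annotation or genome was used, and proteins were not compared. Functions were tested on simulated data. Python 3.11.15, numpy 2.4.6, pandas 2.3.3, scipy 1.17.1 and matplotlib 3.10.9 were used.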

Additional observations from a re-analysis of the deposited data

How the results depend on the processing

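Of 38 alternatives computed over the counts, the shares under peaks and the window shares, all set out in advance, 27 gave a value close to the one reported. Close meant within a set factor for counts, and inside a binomial interval that treats bases or windows as independent for shares. Many of these could not move, or only slightly. The 0% shares lay far from any peak, the smallest gap between peaks of 1 gene (364 bp) exceeds the merging distance of 100 bp, and counting starts from 0 changes little. The number of genes with a peak stayed at 3 under each of the 6 alternatives for it. The count of 8 peaks became 7 when the whole peak had to lie inside the span, because the last HSP90AB1 peak passes its end by 2 bases. With only peaks of at least 500 bp, 3 peaks were left, and the share under peaks became 11.9% for HSP90AB1 and 13.2% for HSPA8, since fewer peaks were counted. This reversed the order of these genes by share. With only windows that have a peak within 100 kb, the share with a peak became 12.2% for HSP90AA1, 12.5% for HSP90AB1, 22.6% for HSP90B1, 10.9% for HSPA8, 11.6% for HSPA5 and 16.1% for HSPD1, by construction of this choice. The share with at least 5 peaks became 0.360% for HSP90AB1, and that with at least 2 became 3.02% for HSPA8. No alternative on peak strength was run, as the list gives none. No paired analysis was possible because the groups hold a single sample each. How deep the reads must be for a bound chaperone mRNA to give a peak cannot be told from positions alone.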
